A study of Homo sapiens with 5 samples.

Results

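Transcript levels were compared between HCT116 cells given siRNAs against both SP1 and SP3 and HCT116 cells given the siRNA against SP3 alone. By its labels, the library pair differed by the addition of the SP1 siRNA. HCT116 is an established human colorectal carcinoma line of epithelial type. The comparison rests on 2 of the 5 libraries of the series, 1 on each side, chosen by their labels, and on 11728 of 20030 listed genes, those that reached 1 FPKM in any library. FPKM scales the fragments counted for a gene by the length of its transcript and by the size of the library. The other 3 libraries were 2 controls, labelled NC, and 1 with the SP1 siRNA alone. Every library came from the same line and carried no other stated treatment. The sources used here do not give the siRNA sequences, their amounts, the hours of treatment or what the controls received. An siRNA guides the cleavage of transcripts that match one of its strands.

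Both SP1 and SP3 bind DNA through zinc fingers and recognise the same GC-rich promoter element, the GC box. SP1 is known mainly as an activator of widely expressed genes, including genes of the cell cycle and of metabolism, while SP3 can activate or repress depending on the promoter and on its modification. Since both factors can occupy the same boxes, the addition of one siRNA to the other asks what loss of SP1 changes once SP3 is already reduced.

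With 1 library a side there is no replicate check and no test, and differences below are those of these libraries. The pair of controls served as a background for how far 2 libraries of the same label lay apart. Nothing in the labels says that they were separate cultures, so their spread may be technical. Libraries held 14678068 to 15970519 counted fragments. Intervals on fold values are exact 95% intervals for counting error only. Differences are of log2(FPKM + 1), a scale that understates the change of genes with low levels.

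SP1 itself stood at 27.5 FPKM with the SP3 siRNA and at 16.1 FPKM with both siRNAs, so the second library held 58.5% of the level of the first (52.7 to 64.9%). The controls were at 36.6 and 37.2 FPKM and the SP1 siRNA alone at 15.8 FPKM. SP1 was thus already at 74.5% of the control mean with the SP3 siRNA (69.3 to 80.0%), and it reached 43.6% with both (39.7 to 47.8%), against 42.9% with the SP1 siRNA alone (39.1 to 46.9%). The ratio of both siRNAs over the SP1 siRNA alone was 1.02 for SP1 (0.903 to 1.15). SP3 was at 13.3 and 13.0 FPKM in the controls, 14.3 with the SP1 siRNA, 5.42 with the SP3 siRNA and 6.67 with both. The SP3 transcript was therefore 1.23-fold higher with both siRNAs than with the SP3 siRNA alone (1.10 to 1.38), and this smaller loss of SP3 moves with every difference given here. Its part in them was not tested.

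Both directions of difference followed the addition of the SP1 siRNA, and their balance depended on how low levels were treated. Of the 11728 genes, 132 (1.13%) differed by at least 2-fold, 90 of them lower (0.767%) and 42 higher (0.358%) with both siRNAs. The same rule applied to the controls picked 2 genes (0.0171%), 1 in each direction (0.00853% each). At 1.5-fold the count was 1074 genes (9.16%), 505 lower (4.31%) and 569 higher (4.85%), against 33 (0.281%) between the controls, 12 higher (0.102%) and 21 lower (0.179%). The differences had a median of 0.03 and an SD across genes of 0.349, where the controls had -0.03 and 0.133. The 90 lower genes had a median of 16.1 FPKM with the SP3 siRNA and 6.65 with both. The 42 higher genes were weaker, with medians of 2.76 and 7.91 FPKM. Above a mean of 5 FPKM over the pair, 72 were lower and 22 higher by 2-fold, and 370 lower and 276 higher by 1.5-fold. Under median-ratio scaling the 1.5-fold counts were 463 higher and 597 lower. With a pseudocount of 0.1 FPKM, 285 genes were higher and 177 lower by 2-fold, and with 5 FPKM 6 were higher and 36 lower, so neither the number nor the more frequent direction held across these settings.

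**Figure D1:**
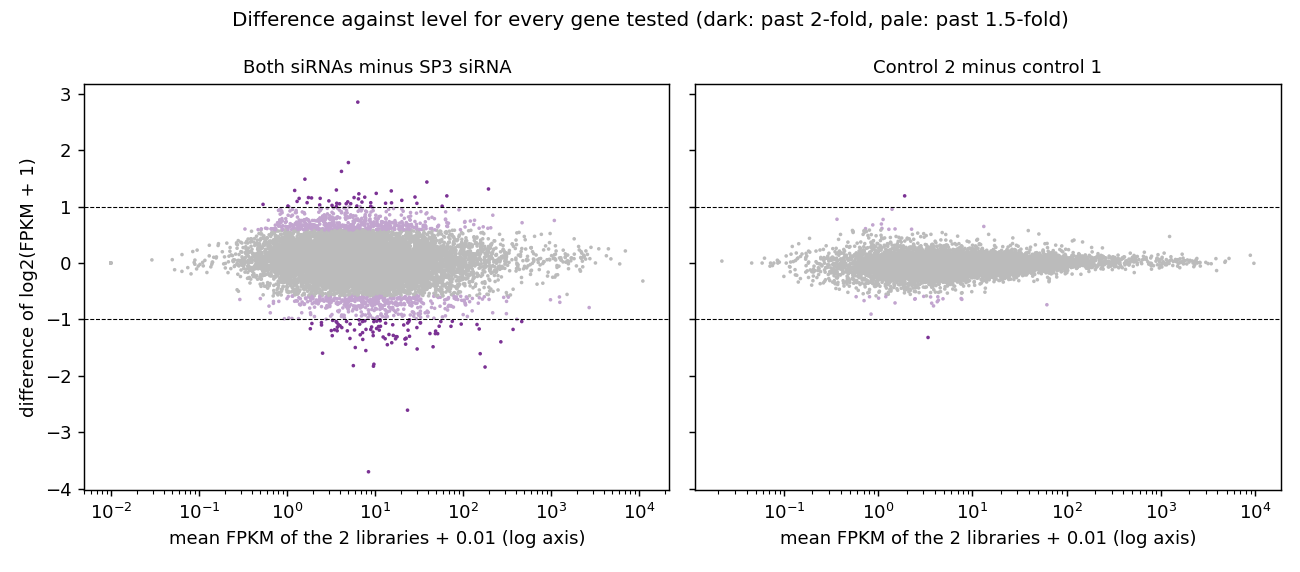
Each point is 1 of 11728 genes, with the mean FPKM of the 2 libraries on a log axis and the difference of log2(FPKM + 1) on the other. The pair with the added SP1 siRNA (left) holds 132 genes beyond the dashed lines at 2-fold, and the pair of controls (right) holds 2.

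Among the 12 genes that were lowest after the addition were a glucose transporter and a cyclin. SLC2A3, which encodes the high-affinity glucose transporter GLUT3, was at 70.5 and 63.9 FPKM in the controls, 5.03 with the SP1 siRNA, 41.2 with the SP3 siRNA and 5.92 with both. Both libraries with the SP1 siRNA were thus low and the other 3 high, and the level was 6.96-fold lower with both siRNAs than with the SP3 siRNA (6.21 to 7.81). CCND1, the cyclin D1 that partners CDK4 and CDK6 in G1, was at 359 and 358 FPKM in the controls, 65.8 with the SP1 siRNA, 281 with the SP3 siRNA and 77.5 with both. It was 3.62-fold lower (3.51 to 3.74), again with the 2 libraries that received the SP1 siRNA apart from the other 3. CDC34, the ubiquitin-conjugating enzyme of SCF ligases that clears cell cycle inhibitors, was at 58.6 and 60.5 FPKM in the controls, 11.1 with the SP1 siRNA, 45.4 with the SP3 siRNA and 15.1 with both. Its level was at 33.3% of that with the SP3 siRNA. UNC119B, a carrier of lipid-modified proteins, was at 12.3 FPKM with the SP3 siRNA and at 3.53 with both, beside 3.22 with the SP1 siRNA alone and 11.7 and 11.6 in the controls. FUCA2, a fucosidase, was at 20.8 FPKM with the SP3 siRNA, 6.98 with both, 6.65 with the SP1 siRNA alone and 25.0 and 27.3 in the controls. RTL8C, a gene derived from a retrotransposon, was at 68.2 and 23.7 FPKM in the compared pair, 11.6 with the SP1 siRNA alone and 47.0 and 42.5 in the controls.

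Other genes among the lowest stood above both controls in the SP3 siRNA library, apart from EIF3C, which is given beside its copy EIF3CL. RGS2, a regulator of G protein signalling, was at 47.7 and 49.2 FPKM in the controls, 18.7 with the SP1 siRNA, 238 with the SP3 siRNA and 77.4 with both. The library with both siRNAs was 3.07-fold below the SP3 siRNA library and still above the controls. KIF1C, a motor of vesicle transport, was at 7.60 and 8.10 FPKM in the controls, 15.6 with the SP3 siRNA and 3.68 with both, close to 3.56 with the SP1 siRNA alone. Its level was thus 4.25-fold lower with both (3.82 to 4.72), under each control. SPRR2D, a structural protein of the cornified envelope, went from 15.7 FPKM to 3.82, where the controls were apart at 4.82 and 2.56. CHMP4C, an ESCRT-III subunit that acts at abscission, stood at 9.32 FPKM with the SP3 siRNA, 2.66 with both and 6.01 and 5.04 in the controls. The steepest difference was that of EIF3CL, a near-identical copy of EIF3C, a subunit of translation initiation factor 3. It was at 16.6 FPKM with the SP3 siRNA, 0.354 with both, 0.259 with the SP1 siRNA and 0.585 and 1.56 in the controls. EIF3C was at 9.43 FPKM with the SP3 siRNA and 1.96 with both, beside 9.43 and 5.74 in the controls and 0.927 with the SP1 siRNA. Reads of these copies can be exchanged in counting, so either value alone is uncertain. Their sum was 26.01 FPKM with the SP3 siRNA and 2.31 with both, beside 10.02 and 7.30 in the controls and 1.19 with the SP1 siRNA.

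Promoters of 4 of these genes are shown because they carry the GC box that SP1 and SP3 recognise, 2 from genes lower and 2 from genes higher after the addition. Each is the 250 bases before the annotated start in RefSeq (GRCh38.p14), written along the gene, with every match to GGGCGG or to its reverse complement CCGCCC in capitals. KIF1C lies at chr17:4997700-4997949 on the plus strand, RGS2 at chr1:192808789-192809038 on the plus strand, IER5L at chr9:129178262-129178511 on the minus strand and GPRIN1 at chr5:176610157-176610406 on the minus strand. The sources used here do not name the build behind the deposited values, and these coordinates belong to the RefSeq windows.
KIF1C: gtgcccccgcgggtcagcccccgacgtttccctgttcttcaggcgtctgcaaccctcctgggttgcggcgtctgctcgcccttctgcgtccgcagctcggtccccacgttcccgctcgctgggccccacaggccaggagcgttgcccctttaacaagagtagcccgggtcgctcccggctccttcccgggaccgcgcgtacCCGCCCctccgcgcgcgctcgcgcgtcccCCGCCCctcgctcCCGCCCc
RGS2: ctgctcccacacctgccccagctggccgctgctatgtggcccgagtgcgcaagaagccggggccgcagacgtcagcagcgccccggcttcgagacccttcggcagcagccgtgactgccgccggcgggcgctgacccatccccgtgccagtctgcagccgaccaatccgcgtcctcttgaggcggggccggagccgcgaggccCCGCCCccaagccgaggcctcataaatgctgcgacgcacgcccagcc
IER5L: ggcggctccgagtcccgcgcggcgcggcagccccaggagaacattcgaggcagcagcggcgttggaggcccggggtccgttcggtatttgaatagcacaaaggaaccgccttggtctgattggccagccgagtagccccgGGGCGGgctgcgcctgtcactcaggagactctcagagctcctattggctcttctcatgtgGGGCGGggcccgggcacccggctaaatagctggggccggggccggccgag
GPRIN1: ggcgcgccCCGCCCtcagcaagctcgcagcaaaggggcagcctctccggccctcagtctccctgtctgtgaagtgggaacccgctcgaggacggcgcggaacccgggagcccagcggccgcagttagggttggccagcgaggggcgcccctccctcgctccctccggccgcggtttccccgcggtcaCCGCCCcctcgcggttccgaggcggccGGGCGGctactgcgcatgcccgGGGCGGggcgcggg
KIF1C has 3 matches, RGS2 1, IER5L 2 and GPRIN1 4. They were picked for holding a box, and other named genes of both directions, among them EIF3C and RRM2, had no match in their window. The motif is common. It occurred in 42.3% of 27305 RefSeq windows of this length and in 69.4% of the 9570 tested genes that matched a window by symbol, 81.7% of 11709. Among genes lower by at least 2-fold 74.2% of 66 had a match, and among those higher 68.6% of 35. From no box to 4 or more, the median difference went from 0.02 over 2926 genes to 0.05 over 1470 genes. The share lower by 1.5-fold went from 3.83 to 5.31% and the share higher from 4.14 to 6.12%. The median GC content of the window went from 57.6 to 76.2% over the same bins, so the number of boxes and the base composition cannot be told apart here. A match is a description and not a bound site.

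The genes that were highest after the addition were of mixed function. IER5L was at 28.5 and 29.5 FPKM in the controls, 78.5 with the SP1 siRNA, 20.6 with the SP3 siRNA and 57.4 with both, 2.78-fold above the SP3 siRNA library (2.58 to 3.01). The 2 libraries with the SP1 siRNA were the highest. PHC2, a subunit of Polycomb repressive complex 1, was also highest in those 2 libraries, at 34.5 and 33.0 FPKM in the controls, 67.6 with the SP1 siRNA, 39.8 with the SP3 siRNA and 91.9 with both. GPRIN1, linked to neurite outgrowth, was at 3.54 FPKM with the SP3 siRNA and 9.62 with both, beside 8.64 with the SP1 siRNA and 3.08 and 3.18 in the controls. NOTUM, a secreted enzyme that inactivates WNT ligands, was at 4.35 FPKM with the SP3 siRNA and 2.53-fold higher with both (2.09 to 3.07), beside 11.99 FPKM with the SP1 siRNA and 5.64 and 5.93 FPKM in the controls. PIGP, which acts in the synthesis of membrane GPI anchors, was at 3.70 and 9.33 FPKM in the compared pair, and ADPRHL1 at 4.23 and 10.04 FPKM. In both, as in METTL27 at 12.5 and 28.04 FPKM, the SP3 siRNA library lay above the controls and the library with both siRNAs lay higher again. With the SP1 siRNA alone PIGP was at 12.06 FPKM, ADPRHL1 at 10.71 and METTL27 at 28.59, each above its level with both.

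FAM162A, a mitochondrial protein induced by hypoxia, showed another order. It was at 369 and 347 FPKM in the controls, 375 with the SP1 siRNA, 112 with the SP3 siRNA and 280 with both. The SP3 siRNA library alone was low, and the level with both siRNAs was 2.49-fold above it (2.35 to 2.65) without reaching either control. ECHS1, an enzyme of mitochondrial fatty acid oxidation, went from 8.58 to 22.2 FPKM, beside 21.4 and 21.6 in the controls and 40.0 with the SP1 siRNA. ASF1B, a histone chaperone of S phase, went from 5.79 to 14.96 FPKM, beside 14.0 and 11.6 in the controls and 9.78 with the SP1 siRNA. RRM2, the small subunit of ribonucleotide reductase, which makes deoxynucleotides, was at 66.1 and 64.5 FPKM in the controls, 17.98 with the SP1 siRNA, 17.2 with the SP3 siRNA and 39.98 with both. Each single siRNA library was thus low, and the library with both lay between them and the controls. The highest ratio belonged to SLX1B, a subunit of a structure-specific endonuclease with a near-identical copy, SLX1A. It was at 0.803 FPKM with the SP3 siRNA and 14.9-fold higher with both (8.85 to 27.2), and the sum of the copies from 2.89 to 16.7 FPKM, beside 8.39 and 7.63 in the controls and 9.96 with the SP1 siRNA.

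**Figure D2:**
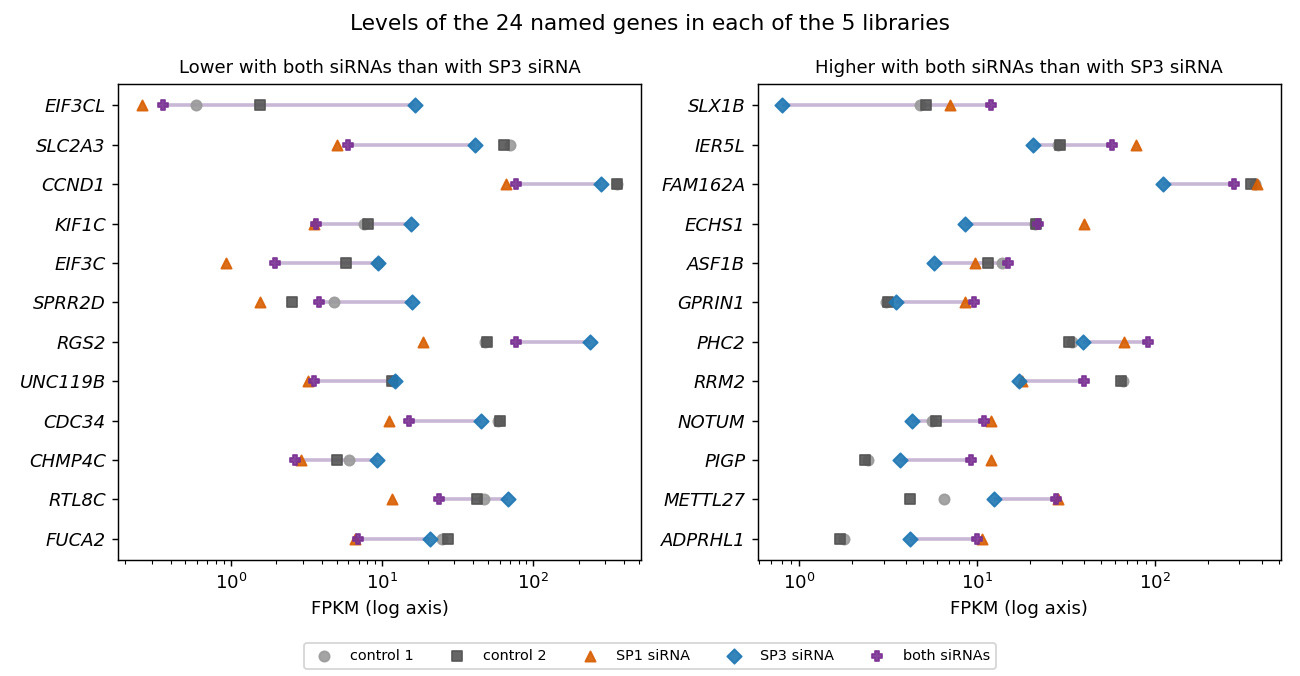
FPKM on a log axis of the 12 genes with the lowest (left) and the 12 with the highest (right) difference past 2-fold above a mean of 5 FPKM, with 1 symbol for each of the 5 libraries. Bars join the SP3 siRNA library to the library with both siRNAs, as from 281 to 77.5 FPKM for CCND1 and from 17.2 to 39.98 FPKM for RRM2.

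An SP1 siRNA was also given without the SP3 siRNA, and that library and the controls are not part of the comparison above. The sources used here do not say whether its sequence and amount were the same. With the SP1 siRNA alone against the mean of the controls, 1014 genes (8.65%) passed 2-fold, 521 higher (4.44%) and 493 lower (4.2%). Of the 90 genes lower by 2-fold with both siRNAs, 53 were also lower by 2-fold with the SP1 siRNA alone, 58.9% of the first list and 10.8% of the second. None was higher by 2-fold with the SP1 siRNA alone. Of the 42 higher genes, 19 were also higher (45.2 and 3.65%) and 2 were lower, which were RRM2 and TOP2A. With a pseudocount of 0.1 FPKM, 152 of 285 higher genes were also higher and 18 lower, and with 5 FPKM 1 of 6 was higher and 1 lower. For the lower genes 105 of 177 and 23 of 36 were also lower under these pseudocounts. Across the 11728 genes, which are not independent replicates, the differences of both pairs had a Pearson r of 0.484 and a Spearman rho of 0.464. Over all 11728 genes the SD of the differences was 0.59 with the SP1 siRNA alone and 0.349 in the pair with the SP3 siRNA. At 1.5-fold, 28.3% and 9.16% of genes passed. The loss of SP1 was unequal too. SP1 was at 42.9% of the control mean with the SP1 siRNA alone, and at 58.5% of the SP3 siRNA library in the pair. SP3 was 1.23-fold higher in that pair. The part of these levels in the gap was not tested. Among genes past 2-fold, the gap between the pairs depended on which pair was used to choose them. The 493 genes lower with the SP1 siRNA alone had a median of -1.29 there and of -0.37 in the pair with the SP3 siRNA, and the 521 higher genes had 1.23 and 0.38. The 90 genes lower in the pair with the SP3 siRNA had a median of -1.18 there and of -1.18 with the SP1 siRNA alone, and the 42 higher genes had 1.10 and 0.95. Each list was chosen on its first value, and the difference between the pairs was not tested.

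**Figure D3:**
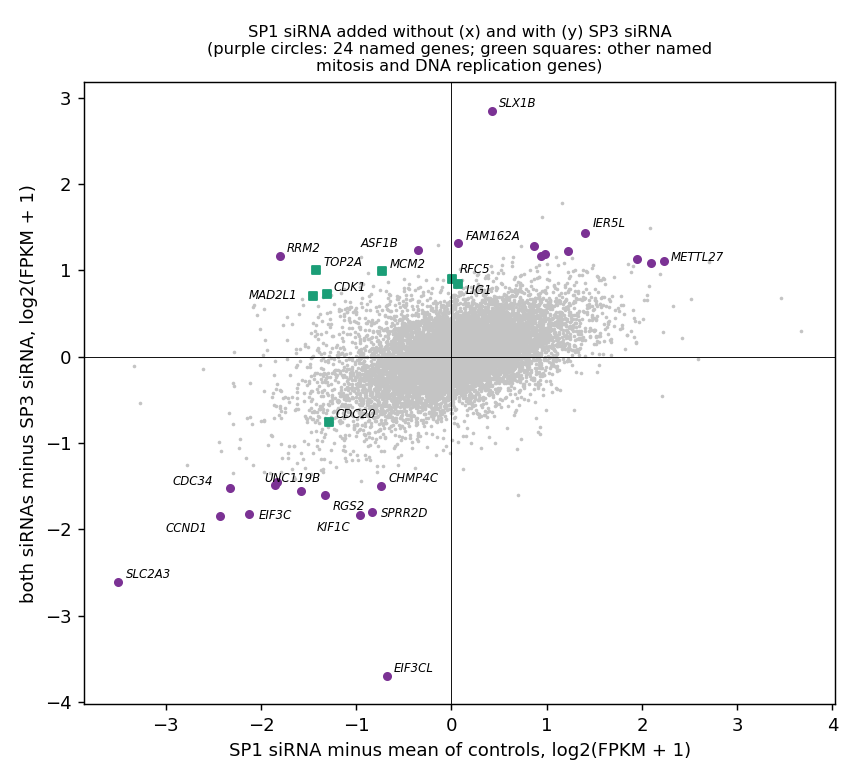
Difference of log2(FPKM + 1) for 11728 genes when the SP1 siRNA was added without (x) and with (y) the SP3 siRNA. SLC2A3 (-3.50 and -2.61) and CCND1 (-2.43 and -1.84) lie low on both axes, while RRM2 (-1.80 and 1.17) and TOP2A (-1.419 and 1.004) lie on opposite sides of 0.

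Counts of gene lists below give members past 1.5-fold, to be read beside 4.85% higher and 4.31% lower over all genes and a median of 0.03. Of 18 measured SP and KLF factors, 3 were lower and 1 higher, with a median of -0.05. They were SP1 itself, KLF13 at 24.7 and 14.8 FPKM, and KLF5, a factor of proliferating gut epithelium, at 76.4 and 48.2 FPKM. KLF10, a TGF-beta response gene, was the 1 that was higher, at 40.3 and 63.6 FPKM. For KLF5 the controls were at 26.9 and 28.3 FPKM and the SP1 siRNA at 27.7, so the SP3 siRNA library was the highest and the level with both lay between. Of 43 coactivator genes (TFIID, Mediator and the acetylases that SP1 engages) 2 were lower and none higher, with MED20 at 13.97 and 6.597 FPKM and MED10 at 26.2 and 16.7 FPKM. Of 35 textbook SP1 targets, 6 were lower and 4 higher (median 0.09). CDKN1A, the CDK inhibitor p21, was at 343 and 329 FPKM in the controls, 200 with the SP1 siRNA, 198 with the SP3 siRNA and 92.3 with both, the lowest of the 5. It was 2.14-fold lower with both siRNAs than with the SP3 siRNA (2.06 to 2.23). KRT18, a keratin of simple epithelia, had the same order, at 750 and 740 FPKM in the controls, 408, 284 and 153.5 FPKM.

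Most genes of DNA synthesis and mitosis lay above 0, though fewer passed 1.5-fold. Of 42 DNA replication genes, 12 were higher and none lower by 1.5-fold, and 39 of 42 lay above 0, with a median of 0.42 beside -0.03 between the controls. MCM2, a subunit of the replicative helicase, was at 25.7 and 26.2 FPKM in the controls, 15.3 with the SP1 siRNA, 5.93 with the SP3 siRNA and 12.7 with both. RFC5, a clamp loader subunit, was at 6.004 FPKM with the SP3 siRNA and 12.1 with both, beside 11.2 and 12.2 in the controls and 11.8 with the SP1 siRNA. LIG1, the ligase of Okazaki fragments, was at 7.05 and 13.5 FPKM, beside 11.9 and 11.2 in the controls and 12.2 with the SP1 siRNA. RFC5 and LIG1 were therefore low in the SP3 siRNA library alone, whereas MCM2 and RRM2 were low in all 3 knockdown libraries. The summed level of the list was 503 FPKM with the SP3 siRNA, 689 with both, 532 with the SP1 siRNA and 864 and 846 in the controls.

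Of 41 mitosis genes, 9 were higher and 1 lower, and 39 lay above 0, with a median of 0.45. The controls differed on this list by a median of -0.22, with 0 of 41 genes above 0, so libraries of the same label also moved to 1 side here. TOP2A, the topoisomerase that untangles sister chromatids, was at 32.2 and 26.7 FPKM in the controls, 10.3 with the SP1 siRNA, 5.64 with the SP3 siRNA and 12.3 with both. CDK1, the kinase of mitotic entry, was at 9.22 FPKM with the SP3 siRNA and 15.9 with both, beside 27.6 and 24.8 in the controls and 9.93 with the SP1 siRNA. MAD2L1, a spindle checkpoint protein, went from 14.3 to 24.02 FPKM, beside 34.4 and 33.0 in the controls and 11.7 with the SP1 siRNA. In these 3 genes the library with both siRNAs lay above each single siRNA library and below each control. CDC20, the activator of the anaphase-promoting complex, went the other way, from 91.9 to 54.0 FPKM, with 76.0 and 69.1 in the controls and 29.1 with the SP1 siRNA. Summed levels of the mitosis list were 451 FPKM with the SP3 siRNA, 547 with both, 370 with the SP1 siRNA and 864 and 748 in the controls. With the SP1 siRNA alone, 36 of the 41 mitosis genes and 16 of the 42 replication genes were lower by 1.5-fold and none higher. Over all tested genes, 12.5% were lower and 15.8% higher by 1.5-fold in that pair. The contrast between that pair and the pair with the SP3 siRNA was not tested.

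Regulators of G1 did not move as a block. Of 33 cyclins, CDKs and CDK inhibitors, 4 were lower and 2 higher, with a median of -0.002. CCND1 and CDKN1A are among the lower ones, as is CDC25B, a phosphatase that activates CDK1, at 32.9 and 19.9 FPKM. TFDP1, the partner of E2F factors, was higher, at 32.2 and 57.1 FPKM, beside 54.7 with the SP1 siRNA and 28.0 and 25.5 in the controls. Of 39 DNA repair genes, 4 were higher and none lower (median 0.24) and all with a mean under 5 FPKM over the compared libraries, which were the recombination genes BLM, XRCC2 and XRCC3 and the Fanconi gene FANCC. BLM, a helicase, was at 2.22 and 4.09 FPKM and XRCC2 at 0.469 and 2.13 FPKM. Of 27 p53 targets 1 was lower, CDKN1A, and none higher (median -0.15). Of 30 apoptosis regulators, 2 were lower and 1 higher (median -0.14). BIRC3, an inhibitor of apoptosis induced by NF-kB, was at 53.4 and 33.1 FPKM and MCL1, a survival protein of the BCL2 family, at 137 and 88.0 FPKM. TRADD, an adaptor of death receptors, was at 7.10 and 12.4 FPKM. For MCL1 the controls were at 85.4 and 86.4 FPKM, so the level with both siRNAs lay near them.

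**Figure D4:**
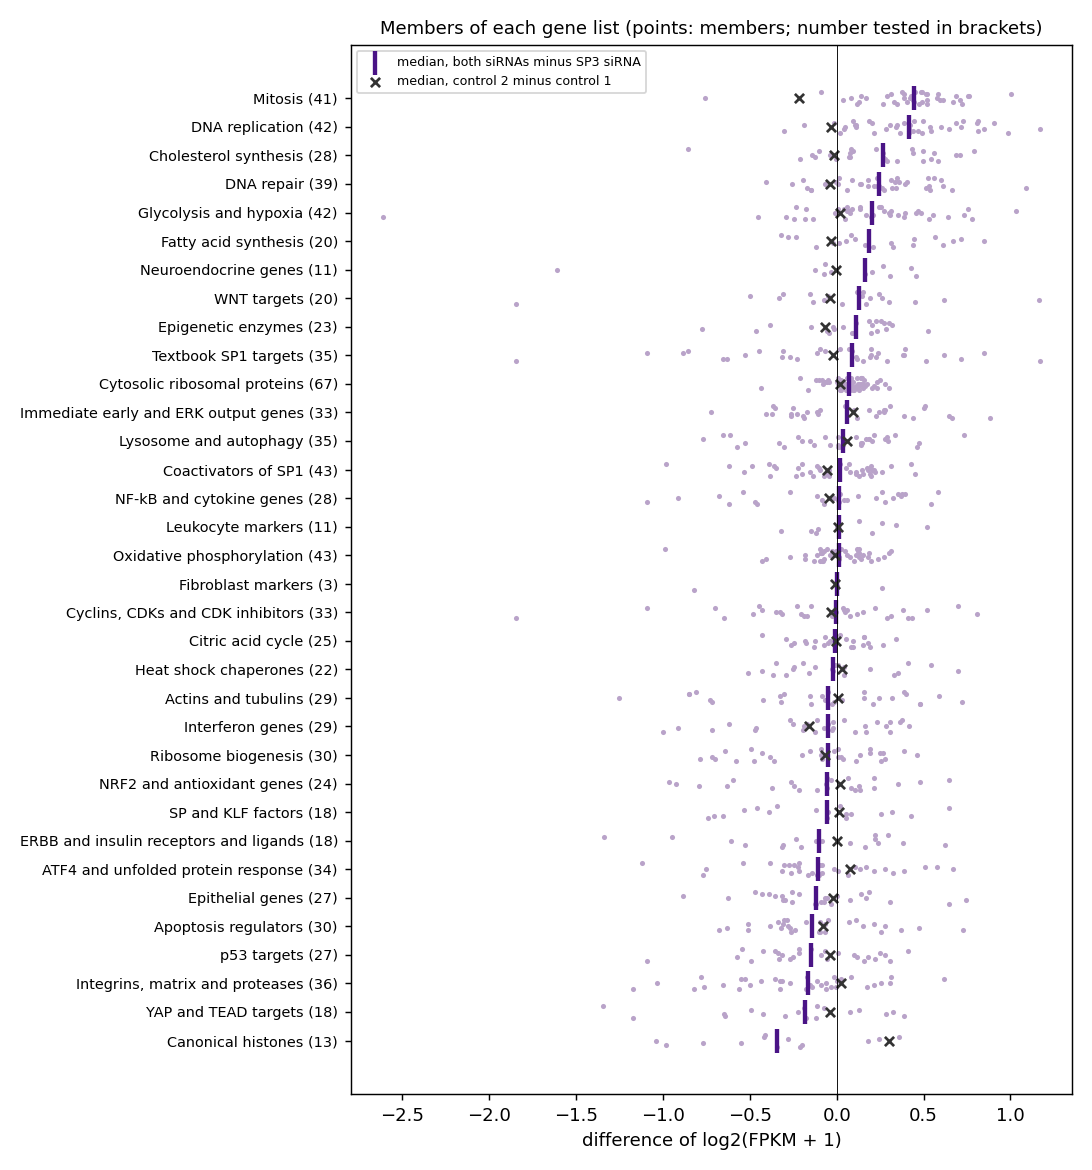
Difference of log2(FPKM + 1), both siRNAs minus SP3 siRNA, for each tested member (points) and the median (bar) of 34 gene lists, with the median between the controls as a cross. The mitosis and DNA replication lists have the highest medians, 0.45 and 0.42, and canonical histones the lowest, -0.35, where the controls differed by 0.30.

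Lipid synthesis held 7 genes that were higher and 1 that was lower with both siRNAs. Of 28 cholesterol synthesis genes, 3 were higher and 1 lower, and 21 lay above 0 (median 0.27). LSS, the lanosterol synthase, went from 12.3 to 20.7 FPKM and MVK, the mevalonate kinase, from 6.16 to 10.5 FPKM, and each stayed below the controls, at 27.1 and 27.5 and at 18.7 and 17.8 FPKM. Of 20 fatty acid synthesis genes 4 were higher and none lower (median 0.19). FASN, the fatty acid synthase, was at 520 and 500 FPKM in the controls, 373 with the SP1 siRNA, 157 with the SP3 siRNA and 282 with both, a ratio of 1.80 (1.77 to 1.83). SCD, a desaturase, was at 357 and 586 FPKM in the compared pair, FADS1 at 13.4 and 21.9 FPKM and ELOVL6 at 4.64 and 7.61 FPKM.

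Of 42 glycolysis and hypoxia genes, 1, the transporter SLC2A3, was lower and 5 were higher, with a median of 0.20. LDHA, the lactate dehydrogenase, was at 1491 and 1552 FPKM in the controls, 1752 with the SP1 siRNA, 817 with the SP3 siRNA and 1377 with both. BNIP3, a mitophagy receptor, was at 46.6 and 80.6 FPKM in the compared pair, beside 150.3 and 146 in the controls. PFKFB4, which makes an activator of glycolysis, was at 8.70 and 15.1 FPKM, beside 54.2 and 52.6 in the controls and 23.3 with the SP1 siRNA. Mitochondrial lists stayed near 0, with 0 higher and 1 lower of 43 oxidative phosphorylation genes (median 0.01) and none in either direction of 25 citric acid cycle genes (median -0.01). The 1 lower gene was NDUFB2, a subunit of complex I, at 40.8 and 44.0 FPKM in the controls, 6.97 with the SP1 siRNA, 39.7 with the SP3 siRNA and 19.5 with both. SLC7A5 and SLC3A2, the 2 chains of the large neutral amino acid transporter, were lower, at 74.2 and 33.6 FPKM and at 69.6 and 40.6 FPKM. They belong to the ATF4 and unfolded protein list, where 3 of 34 were lower and 1 higher (median -0.11). CEBPB, a bZIP factor, was lower, at 87.4 and 51.5 FPKM, and DDIT3, the stress factor CHOP, higher, at 28.5 and 46.0 FPKM. The controls were apart for DDIT3, at 51.9 and 66.0 FPKM.

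Ferritin light chain and glutathione synthesis genes were among those lower. Of 24 NRF2 and antioxidant genes 5 were lower and 1 higher (median -0.05). FTL, the ferritin light chain, was at 2602 and 2617 FPKM in the controls, 1777 with the SP1 siRNA, 3458 with the SP3 siRNA and 2000 with both. GCLC, the catalytic subunit of glutathione synthesis, was at 44.1 and 22.2 FPKM in the compared pair, beside 21.3 and 20.2 in the controls. HMOX1, heme oxygenase 1, was at 10.6 and 5.10 FPKM, the lowest of the 5 libraries, while TALDO1 of the pentose phosphate pathway was higher, at 52.1 and 82.2 FPKM. Of 22 heat shock chaperones 1 was higher and none lower (median -0.02). It was CRYAB, a small heat shock protein, at 0.591 and 1.58 FPKM.

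Adhesion, matrix and YAP target lists held 10 lower calls and 1 higher call, with CYR61 on both. Of 36 integrin, matrix and protease genes 6 were lower and 1 higher, and 9 lay above 0 (median -0.16). ITGA6, the integrin alpha 6 chain that binds laminin, was at 86.1 and 82.6 FPKM in the controls, 26.2 with the SP1 siRNA, 102 with the SP3 siRNA and 49.5 with both. ITGA2, a collagen receptor chain, was at 27.5 and 15.2 FPKM in the compared pair. Of 18 YAP and TEAD genes 4 were lower and none higher (median -0.18). CTGF and CYR61, matricellular targets of YAP, were at 25.1 and 9.30 FPKM and at 213 and 94.2 FPKM. The controls were apart for both genes, at 12.1 and 17.6 FPKM and at 99.6 and 131 FPKM. TEAD1, the DNA-binding partner of YAP, was at 31.4 and 19.7 FPKM and PTPN14, an inhibitor of YAP, at 12.7 and 7.75 FPKM. Of 29 actin, tubulin and related genes 6 were lower and 2 higher (median -0.05). AHNAK, a giant scaffold protein, was at 124 and 119 FPKM in the controls, 16.8 with the SP1 siRNA, 73.4 with the SP3 siRNA and 30.2 with both. TPM2, TUBA1B and FLNC were also lower, at 54.5, 55.3 and 56.5% of their level with the SP3 siRNA. Of 27 epithelial genes 2 were higher and 2 lower (median -0.12), with ELF3, an epithelial ETS factor, at 90.9 and 153 FPKM and CGN, the tight junction protein cingulin, at 25.5 and 16.2 FPKM.

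Every receptor and signalling list held lower members, and some held higher ones as well. Of 18 ERBB and insulin axis genes 3 were lower and 1 higher (median -0.10). IRS2, an adaptor of the insulin receptor, was at 19.3 and 19.5 FPKM in the controls, 10.9 with the SP1 siRNA, 32.8 with the SP3 siRNA and 12.4 with both. HBEGF, an EGF receptor ligand, was at 16.4 and 8.03 FPKM, IGF2R at 9.31 and 5.76 FPKM and IGFBP6, which binds IGF2, at 163 and 252 FPKM. Of 33 immediate early and ERK output genes 3 were higher and 1 lower (median 0.06). FOS was at 20.6 and 38.9 FPKM, beside 7.48 and 10.1 in the controls, and DUSP4, a phosphatase of ERK, at 44.7 and 26.7 FPKM. Of 20 WNT genes 2 were higher and 1, CCND1, lower (median 0.13). Of 28 NF-kB and cytokine genes 4 were lower and none higher (median 0.02), with the chemokine CXCL8 at 26.5 and 13.6 FPKM and the cytokine IL18 at 32.8 and 21.0 FPKM. Of 29 interferon genes 4 were lower and none higher (median -0.05, and -0.16 between the controls). ISG15, a ubiquitin-like modifier, was at 379 and 404 FPKM in the controls, 165.5 with the SP1 siRNA, 548 with the SP3 siRNA and 274 with both, and IRF7, an interferon regulatory factor, at 36.8 and 22.0 FPKM in the compared pair.

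None of 67 cytosolic ribosomal protein genes passed 1.5-fold (median 0.07). Of 30 ribosome biogenesis genes 4 were lower and none higher (median -0.05), which were the helicase DDX21, the snoRNP protein GAR1, RRP9 and the polymerase I factor RRN3, at 57.2, 58.7, 59.4 and 61.2% of their level with the SP3 siRNA. Of 35 lysosome and autophagy genes 3 were lower and 1 higher (median 0.04). NEU1, a lysosomal sialidase, was at 28.0 and 47.0 FPKM, and the autophagy genes WIPI1 at 8.09 and 4.33, ATG13 at 8.57 and 5.08 and OPTN at 83.5 and 54.2 FPKM. Of 23 epigenetic enzymes 1, the deacetylase SIRT1 at 6.19 and 3.21 FPKM, was lower and none higher (median 0.11). Of 11 genes on the neuroendocrine list 1 was lower and none higher (median 0.17). The lower one was RGS2, the regulator of G protein signalling described above. Of 13 canonical histones 3 were lower and none higher, which were HIST1H1E, HIST1H2BC at 76.1 and 36.6 FPKM and HIST1H2AC at 93.9 and 54.8 FPKM. On that list the controls differed by a median of 0.30, with 2 members past 1.5-fold. Most histone mRNAs are not polyadenylated, and the sources used here do not say whether poly(A) RNA was selected.

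The markers of the line were present in both libraries, with EPCAM at 95.7 and 93.7 FPKM, CDH1 at 41.2 and 38.6 FPKM and KRT8 at 2361 and 2253 FPKM. KRT19 was at 1427 and 1571 FPKM. KRT18, also a marker of the line, was lower past 1.5-fold, at 283.7 and 153.5 FPKM. Of 17 leukocyte markers 11 were tested, and none of them passed 1.5-fold between the compared libraries (median 0.01). Their summed level was 99.3 FPKM with the SP3 siRNA and 83.2 with both, of which CD68 gave 94.1 and 75.3 FPKM, beside 117 and 119 in the controls and 67.2 with the SP1 siRNA. TYROBP, CD3E, CD3D, MS4A1 and AIF1 were listed at 0 in both compared libraries. LYZ, the lysozyme of myeloid cells, was at 11.2 and 12.2 FPKM in the controls and at 0.258, 0.124 and 0.0449 FPKM with the SP1 siRNA, the SP3 siRNA and both. With the SP1 siRNA alone 9 of the 11 were lower than in the controls by 1.5-fold, beside 12.5% of all tested genes. Values set against the controls also carry that difference. Its part was not tested. Of 11 fibroblast markers 3 were tested. COL1A1 was lower, at 8.22 and 4.21 FPKM, and the summed level was 198 and 196 FPKM, most of it S100A4, at 179.1 and 179.0 FPKM. None of 8 endothelial markers reached 1 FPKM. In bulk RNA, fewer cells of a type and less RNA per cell cannot be told apart.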

How the data were processed

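RNA of 5 HCT116 libraries was sequenced, and the authors deposited 1 table of FPKM per library, per the file headers. The submitters' processing notes name HTSeq 0.9.1, Cufflinks 2.2.1, HISAT2 2.0.5 and Trimmomatic 0.36, with no role. The sources used here do not give genome build, annotation or strand, so overlapping and near-identical genes can share reads.

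Groups came from the sample titles. Differences were taken on log2(FPKM + 1) for 11728 genes with at least 1 FPKM in a library, with no test, because each side had 1 library. The folds counted were 2 and 1.5. Whole reads were recovered from the steps of the values for 99.99% of 17125 genes above 0 (tolerance 0.02 reads), against 2 of 500 genes after jitter. The smallest fitting length was used, so reads are lower limits, and intervals are exact Clopper-Pearson ones. Fold calls and intervals were tried on simulated data that held counting error only, so variation between cultures was not checked. Python 3.11.15, numpy 2.4.6, pandas 2.3.3 and scipy 1.17.1 were used.

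Named genes were SP1 and SP3, the 12 highest and 12 lowest past 2-fold with a mean of at least 5 FPKM over the compared libraries, and up to 4 members per list past 1.5-fold at that level, without unnamed loci, pseudogenes, a few genes not reported here or symbols that read as dates (27 listed). Cell type markers were named besides, and BLM, XRCC2, XRCC3, FANCC, CRYAB, SIRT1 and HIST1H1E after their values were seen. The comparison and the 35 lists were chosen with earlier results of these data known. Alternatives were 2 other pseudocounts, 2 filters, median-ratio scaling and leaving out each control.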

Additional observations from a re-analysis of the deposited data

Results flagged for a closer look

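In 7 named genes the SP1 siRNA went with opposite differences without and with the SP3 siRNA, past 1.5-fold each time and against each control. They were lower with the SP1 siRNA alone and higher with both siRNAs than with the SP3 siRNA. The log2 differences without and with the SP3 siRNA were -1.80 and 1.17 for RRM2, -1.419 and 1.004 for TOP2A, -1.31 and 0.72 for CDK1, and -1.45 and 0.71 for MAD2L1. They were -0.73 and 0.99 for MCM2, -1.16 and 0.73 for PFKFB4, and -0.85 and 0.73 for NEU1. Each value rests on 1 library a side apart from the controls, and the difference between the pairs was not tested. All 7 were named for the size of their difference in the compared pair. Over all tested genes, 493 were lower by 2-fold with the SP1 siRNA alone. Of these, 16 (3.25%) were higher by 1.5-fold in the compared pair and 155 (31.4%) lower. Of the 521 that were higher by 2-fold, 1 (0.192%) was lower by 1.5-fold there and 142 (27.3%) higher. Among all 11728 genes, 4.85% were higher and 4.31% lower by 1.5-fold in the compared pair.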

How the results depend on the processing

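The counts depended on the pseudocount. With 0.1 FPKM in place of 1 FPKM, 462 genes passed 2-fold (285 higher, 177 lower) and 1940 passed 1.5-fold (1137 higher, 803 lower). The overlap with the SP1 siRNA alone was then 105 lower and 152 higher genes in the same direction, with 3 lower and 18 higher genes opposite. With 5 FPKM, 42 genes passed 2-fold (6 higher, 36 lower) and 314 passed 1.5-fold (101 higher, 213 lower), and the overlap was 23 lower and 1 higher gene, with 1 higher gene opposite. Above a mean of 5 FPKM over the pair, 22 were higher by 2-fold, 646 passed 1.5-fold and 276 of these were higher, and 8 higher genes overlapped. Fewer genes were tested there. Under median-ratio scaling 1 higher gene was opposite, and the split at 1.5-fold was 463 higher and 597 lower. Without each control in turn, the overlap ranged from 55 to 56 lower genes and from 19 to 21 higher genes, and opposite genes from 0 to 1 and from 2 to 3. With a pseudocount of 5 FPKM the medians of the mitosis and DNA replication lists were 0.275 and 0.282, beside 0.447 and 0.416 with 1 FPKM. The median of the WNT list was -0.009 at a mean of at least 5 FPKM, over 14 genes, and the cause was not tested. That of the cyclin, CDK and CDK inhibitor list was -0.203 there, beside -0.002. Without a filter, the medians of the ERBB and neuroendocrine lists were 0.038 and 0.0, beside -0.099 and 0.165. Differences of named genes also shrank with a pseudocount of 5 FPKM, as for KIF1C, at -1.248 beside -1.829. No paired analysis was possible because each knockdown group has 1 library and replicate numbers occur among the controls alone. With 1 library a side, a difference near the size of the spread between controls cannot be read, and counting intervals do not cover variation between cultures.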

Other observations

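Several genes past 2-fold stood apart in the SP3 siRNA library or in the library with both siRNAs and differed little with the SP1 siRNA alone. They were chosen after their values were seen. DUSP3, a phosphatase of MAP kinases, was at 17.7 and 17.5 FPKM in the controls, 19.2 with the SP1 siRNA, 25.3 with the SP3 siRNA and 9.64 with both, the lowest of the 5. FAM32A was at 15.1 and 15.2 FPKM in the controls, 13.4 with the SP1 siRNA, 41.8 with the SP3 siRNA and 18.4 with both. The SP3 siRNA library alone was thus high. DHRS13, a short-chain dehydrogenase, was at 4.98 and 4.75 FPKM in the controls, 4.31 with the SP1 siRNA, 1.70 with the SP3 siRNA and 5.60 with both, so that the SP3 siRNA library alone was low. YWHAZ, an abundant 14-3-3 adaptor protein, belonged to the other kind, low wherever the SP1 siRNA was given. It was at 329 and 325 FPKM in the controls, 103 with the SP1 siRNA, 393 with the SP3 siRNA and 149 with both.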
